A study of Mus musculus with 3 samples.

Results

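Vascular growth factor signalling was described in single-cell RNA-seq of mouse intestinal organoids through 10 genes, out of 32285 in the files: the receptor genes Flt1, Kdr, Flt4, Nrp1, Nrp2, Tek and Tie1 and the ligand genes Vegfa, Vegfb and Vegfc. They were picked by name from the Vegf and Tie families, with no threshold on a measured value, and the angiopoietins, ligands of Tek, are given among the other pathway genes. All 10 had UMIs in every library. A UMI is a tag that counts 1 captured RNA molecule, and a barcode marks 1 droplet, which as a rule holds 1 cell.

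Organoids are epithelial cells grown as hollow bodies in gel, here from small intestine of C57BL/6 mice at passage 3 and culture day 6. Each of 3 genotypes gave 1 library: WT, LApc (Lgr5-CreERT2;Apc fl/fl) and LApcL (the same alleles together with Lef1 fl/fl), where the Cre allele is Lgr5-EGFP-IRES-CreERT2 in full. All mice had been given 2 doses of tamoxifen at 2 mg when 7 to 8 weeks old, which switches on the Cre recombinase in cells that express the stem cell gene Lgr5, so only descendants of such cells can carry the deletions. WT and LApcL were analysed 21 days after tamoxifen and LApc 29 days after. Apc restrains Wnt signalling and Lef1 is a transcription factor of that pathway. The extent of either deletion was not analysed here. The number of mice behind each culture is not given in the sources used here, and without replicates no difference below has a replicate check.

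In textbook terms, Vegfa is the main growth factor for blood vessels and signals mostly through Kdr, while Flt1 binds it tightly with weak signalling and can act as a sink. Vegfb binds Flt1. Vegfc acts through Flt4 and drives the growth of lymphatic vessels. The neuropilins Nrp1 and Nrp2 are co-receptors that also bind semaphorins, and Tek and Tie1 are the receptor and partner through which angiopoietins steady mature vessels. These receptors are known chiefly from endothelial cells. In the gut, epithelial cells are a source of Vegfa, and low oxygen raises Vegfa transcription in most cell types.

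In total, 87185429 UMIs were deposited for WT, 118867221 for LApc and 112057783 for LApcL. The same 3195 barcodes were present in all 3 libraries, and 3145 of them had at most 20% mitochondrial UMIs in the WT counts; these are called shared barcodes. Their total UMIs correlated between libraries with Pearson's r of 0.986 to 0.992, so their 3 sets of counts are not 3 independent readings. Which culture their molecules came from could not be told from the files, and WT, LApc or LApcL counts of shared barcodes name the library that held them, not a genotype. They were split by the lymphatic genes Prox1 and Mmrn1 into 1094 with at least 1 UMI and 2051 with 0, called the positive and the zero class. All 9 pan-endothelial markers searched reached at least 10 CPM in both classes (CPM is UMIs of a gene per 1e+06 UMIs of the set), with sums of 4246 and 5475 CPM, while 7 epithelial markers summed to 19.1 and 10.8 CPM. This goes against the epithelial label of the organoids. Of 7 lymphatic markers that the split did not use, 6 were higher in the positive class, among them Lyve1 (1329 against 53.7 CPM), and Ccl21a was lower (352 against 3045 CPM). Markers of mural cells summed to 47.5 CPM in the positive and 54.6 CPM in the zero class, of fibroblasts to 87.9 and 31.4 CPM and of immune cells to 9.09 and 5.95 CPM; their part in the levels below was not tested. Barcodes of 1 library only with at least 10000 UMIs, called deep barcodes, numbered 1208 in WT, 2161 in LApc and 1931 in LApcL, and there the epithelial markers summed to between 4565 and 8043 CPM and the endothelial ones to between 5.28 and 31.4 CPM. Median depth was 2847.5 UMIs in the positive class, 1860 in the zero class and 32584 to 38073.5 in deep barcodes.

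Receptor and ligand UMIs were spread differently over the barcodes, whose sets also differ in total UMIs. In WT, at least 91.2% of the UMIs of Flt1, Kdr, Flt4, Nrp1, Nrp2, Tek and Tie1 came from shared barcodes of both classes, whereas 35.2% of Vegfa, 70.1% of Vegfb and 50.4% of Vegfc UMIs came from deep barcodes. In LApc, deep barcodes held 47.9% of Nrp2 UMIs, 20.4% of Nrp1 and 19.0% of Flt1. In LApcL they held 28.3% of Nrp1, 14.8% of Nrp2 and 6.24% of Flt1. The share of Kdr, Flt4, Tek and Tie1 in deep barcodes stayed under 2% in every library.

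**Figure D1:**
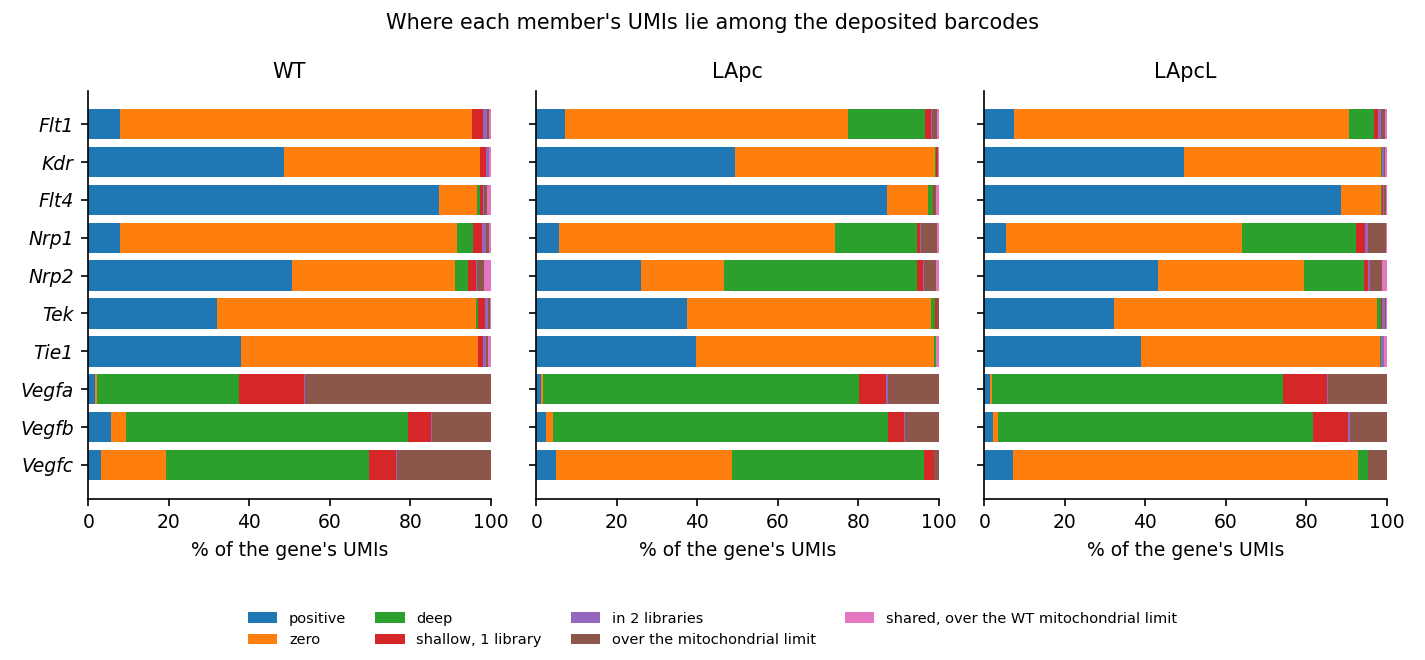
Each bar shows, for 1 gene and 1 library, the percent of its UMIs found in each class of deposited barcodes, and the colours add up to 100%. The bars of Kdr, Flt4, Tek and Tie1 are filled by the positive and zero classes in all 3 libraries, while the green share of deep barcodes grows for Nrp2 from 3.19% in WT to 47.9% in LApc.

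Within the shared barcodes, 3 members were higher in the positive class by at least 2-fold (Flt4, Vegfa, Vegfb), 3 were lower (Flt1, Nrp1, Vegfc) and 4 were within 2-fold. Of the 12151 genes with at least 10 UMIs in either class, 13.4% were higher and 7.28% lower, with a median log2 ratio of 0.12. Log2 ratios here are of CPM + 1, which understates the change of low genes, and intervals are exact at the 95% level and cover counting error only. CPM are UMIs tagged near transcript ends, not divided by length, so levels are compared between barcodes and not between genes.

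Flt1 (chr5:147561604-147726011, minus strand, build GRCm38 as are all positions below), the decoy-like receptor, stood at 156 CPM in the positive class and 1235 CPM in the zero class in the WT counts, 7.94-fold lower (7.26 to 8.69). The LApc counts of the same barcodes gave 172 and 1230 CPM and the LApcL counts 150 and 1229 CPM. Nrp1 (chr8:128358604-128503363, plus strand), a co-receptor for Vegfa, followed it with 70.4 against 534 CPM in WT counts, 7.59-fold lower (6.65 to 8.70). Its values were 60.0 and 528 CPM in LApc counts and 72.2 and 554 CPM in LApcL counts. For both genes the 2 classes stood far apart in each set of counts.

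Flt4 (chr11:49609263-49652739, plus strand), the receptor for Vegfc, was the member most tilted to the positive class. It stood at 261 against 20.4 CPM in WT counts, 272 against 23.1 CPM in LApc counts and 263 against 21.3 CPM in LApcL counts. The WT fold was 12.8 (10.4 to 16.0). At least 1 Flt4 UMI was found in 43.8% of positive and 4.24% of zero barcodes, and in 20.6% and 2.30% after each barcode was thinned to 1000 UMIs. For comparison, 0.414% of WT deep barcodes, which are epithelial, held a Flt4 UMI at a median of 38073.5 UMIs, and the share due to free RNA within the shared barcodes was not tested.

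Kdr (chr5:75932827-75978458, minus strand), the main signalling receptor for Vegfa, was present on both sides, at 712 against 513 CPM in WT, 713 against 519 CPM in LApc and 738 against 527 CPM in LApcL counts. Its log2 ratio of 0.47 (0.39 to 0.55) lies under the 2-fold limit. Nrp2 (chr1:62703285-62818695, plus strand), a co-receptor of Flt4, stood at 354 against 206 CPM, 367 against 212 CPM and 354 against 215 CPM in the same order. The log2 ratio of Nrp2 was 0.78 (0.66 to 0.91).

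The Tie receptors differed little. Tek (chr4:94739289-94874976, plus strand), the angiopoietin receptor, had 73.9 CPM in the positive and 108 CPM in the zero class in WT counts, with a log2 ratio of -0.54 (-0.76 to -0.32). Its LApc and LApcL counts gave 90.7 against 106 CPM and 75.8 against 111 CPM. Tie1 (chr4:118471191-118490061, minus strand), its partner, was nearly level with 265 against 299 CPM in WT, 277 against 300 CPM in LApc and 271 against 299 CPM in LApcL counts. Its log2 ratio was -0.17 (-0.29 to -0.05).

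Among the ligand genes, Vegfa (chr17:46016993-46032369, minus strand) was at 49.3 CPM in the positive class and 12.5 CPM in the zero class, 3.93-fold (2.91 to 5.38). The LApc and LApcL counts gave 50.1 against 14.4 CPM and 45.5 against 12.1 CPM. With Mmrn1 alone as the splitting gene the Vegfa log2 ratio fell from 1.89 to 0.78, under the limit. Vegfb (chr19:6982473-6987651, minus strand), a ligand of Flt1, stood at 45.1 against 21.2 CPM, a log2 ratio of 1.05 (0.69 to 1.42). The Vegfb call rests on the margin: the LApc counts (41.0 against 22.2 CPM) gave 0.86 and the LApcL counts (41.9 against 20.7 CPM) gave 0.98. Vegfc (chr8:54077606-54187096, plus strand), the lymphatic growth factor, had 9 UMIs in the positive class and 46 in the zero class, 2.64 against 9.77 CPM. That is 3.70-fold lower in the positive class, with a wide interval of 1.79 to 8.60.

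Epithelial marker genes were lower in shared than in deep barcodes by more than the ligand genes. From deep to shared WT barcodes the summed epithelial markers dropped 319.6-fold, from 4565 to 14.3 CPM. Vegfa dropped 2.63-fold, from 73.4 to 28.0 CPM, and Vegfb 1.25-fold, from 39.0 to 31.3 CPM. The part of epithelial RNA in these ligand levels was not tested.

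**Figure D2:**
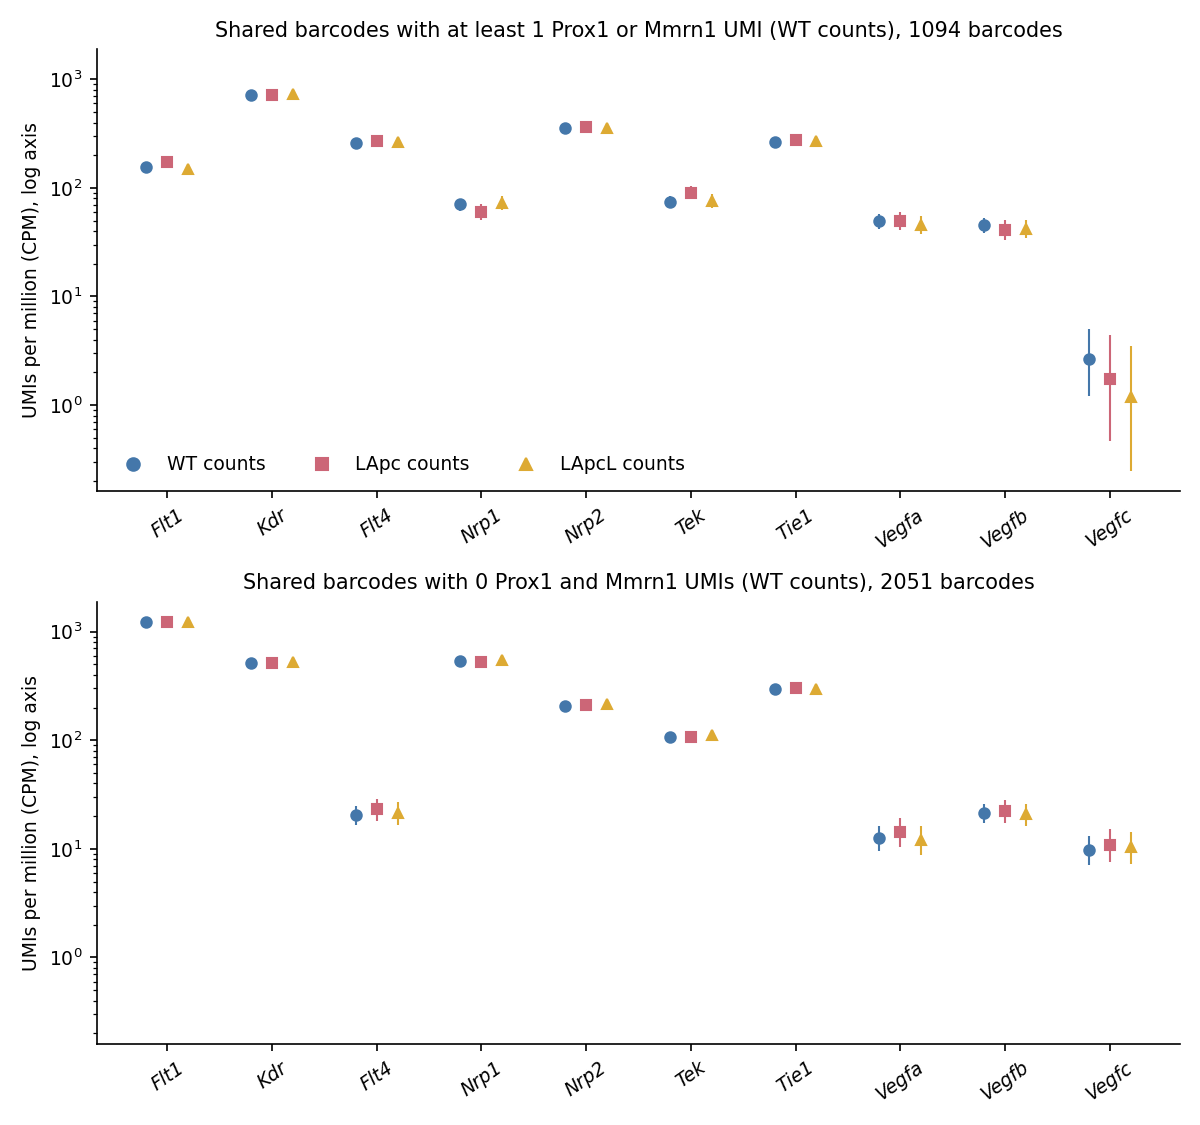
Points are CPM on a log axis in the positive (top) and zero (bottom) class of shared barcodes, from the WT, LApc and LApcL counts of the same barcodes, and bars are exact Poisson 95% intervals. Flt1 and Nrp1 stand higher in the lower panel and Flt4 and Vegfa in the upper, with the 3 sets of counts close together for all but Vegfc, which rests on 3 to 9 UMIs in the positive class.

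Other genes of the pathway divided in the same comparison, in which 13.4% of all genes were higher and 7.28% lower in the positive class. Of 6 further ligands, 3 had enough UMIs: Angpt1, an activating ligand of Tek, was higher in the positive class (12.02 against 0.849 CPM), as was Angpt2, a context-dependent ligand of Tek (74.2 against 26.5 CPM), and Pgf, a ligand of Flt1, was lower (1.17 against 3.40 CPM). Few UMIs lie behind the Pgf call, since 3 UMIs make 0.879 CPM in the positive and 0.637 CPM in the zero class. Of 9 neuropilin ligands and plexins, 8 had enough UMIs, with 2 higher, 2 lower and 4 within 2-fold. Sema3a, a repulsive ligand of Nrp1, stood at 168 against 12.7 CPM, and Sema3g, known from arteries, at 6.74 against 58.4 CPM. Plxna4, a signalling partner of neuropilins, was higher (97.6 against 44.0 CPM). Among 9 receptor partners, Esam, a junction protein, was lower (102 against 548 CPM), Amotl2, which couples junctions to the cytoskeleton, was higher (66.8 against 30.4 CPM), and Ptprb, the phosphatase that restrains Tek, was within 2-fold (426 against 542 CPM). Of 15 genes known to respond to these receptors, 1 was higher, 6 were lower and 8 were within 2-fold, with a median log2 ratio of -0.62 beside 0.12 for all genes. The tip cell gene Esm1 (5.57 against 49.7 CPM) and the apelin receptor gene Aplnr (9.67 against 62.4 CPM) were among those lower, and Dusp5 (165 against 66.5 CPM) was the one higher. The 3 genes that process Vegfc (Ccbe1, Adamts3, Svep1) had 8 UMIs in the positive and 2 in the zero class, too few to compare.

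The shared barcodes were also grouped by UMIs of marker genes, with no member among the genes used. In the zero class, 129 barcodes had at least 2 UMIs of an arterial set (Gja5, Gja4, Bmx, Sema3g), 780 at least 2 of a capillary set (Rgcc, Gpihbp1, Car4, Cd36), 361 at least 1 of a high endothelial venule set (Chst4, Fut7) and 897 met none of these. In the positive class, 368 barcodes had an Ackr4 UMI, 259 a Marco UMI, 102 a Madcam1 UMI and 420 none of them. The groups are ranges of counts and overlap: 73 barcodes were in both the arterial and the capillary set, 56.6% of the first and 9.36% of the second.

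Flt1 was highest in the capillary set at 1621 CPM (1562 to 1681), then in the arterial set at 1326 CPM and the zero-class barcodes of no set at 1241 CPM, whose intervals overlap, and lower in the high endothelial venule set at 703 CPM. In the positive class Flt1 was 340 CPM in the barcodes of no set, 90.8 in the Marco set, 66.5 in the Ackr4 set and 20.7 in the Madcam1 set. Nrp1 ran in the same order, from 800 CPM in the capillary set and 624 in the arterial set down to 11.5 CPM (3.74 to 26.9) in the Madcam1 set. The Flt1 and Nrp1 counts of the positive class thus lay mostly in barcodes without Ackr4, Marco or Madcam1 UMIs, which held 363 of its 531 Flt1 UMIs and 182 of its 240 Nrp1 UMIs.

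Flt4 and Nrp2 were both highest in the Marco set, at 403 CPM (363 to 445) and 626 CPM (576 to 679). Flt4 stood at 237 CPM in positive barcodes of no set, 200 in the Ackr4 set and 168 in the Madcam1 set, with overlapping intervals for neighbours in that order. The high endothelial venule set held 4 Flt4 UMIs, 2.99 CPM. Nrp2 was 336 CPM in the Madcam1 set and 302 in the positive barcodes of no set, 232 in the zero-class barcodes of no set, 222 in the Ackr4 set, 194 in the capillary set, 194 in the high endothelial venule set and 106 in the arterial set. Kdr also peaked in the Marco set at 1011 CPM (948 to 1078), lay between 470 and 728 CPM in 6 of the other 7 groups and was 281 CPM (253 to 311) in the high endothelial venule set.

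Tek was 154 CPM (113 to 204) in the arterial set, an interval that overlaps those of the zero-class barcodes of no set (116 CPM), the capillary set (110 CPM) and the Ackr4 set (106 CPM), and it was lowest in the Madcam1 set at 27.6 CPM (14.3 to 48.2). Tie1 kept within 205 to 331 CPM across all 8 groups, the narrowest spread of the receptors in fold terms. Vegfc was concentrated in the arterial set, which held 27 of the 46 UMIs of the zero class at 86.5 CPM (57.0 to 126), against 6.81 CPM (3.52 to 11.9) in the capillary set and 1 UMI in the high endothelial venule set. The Ackr4 set had 0 Vegfc UMIs, which allows up to 2.49 CPM when 3 counts are taken as the floor. Vegfa was highest in the Madcam1 set at 104 CPM (75.5 to 139) and the Marco set at 78.0 CPM (61.1 to 98.0), whose intervals overlap, and was 6.24 CPM (3.12 to 11.2) in the capillary set.

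**Figure D3:**
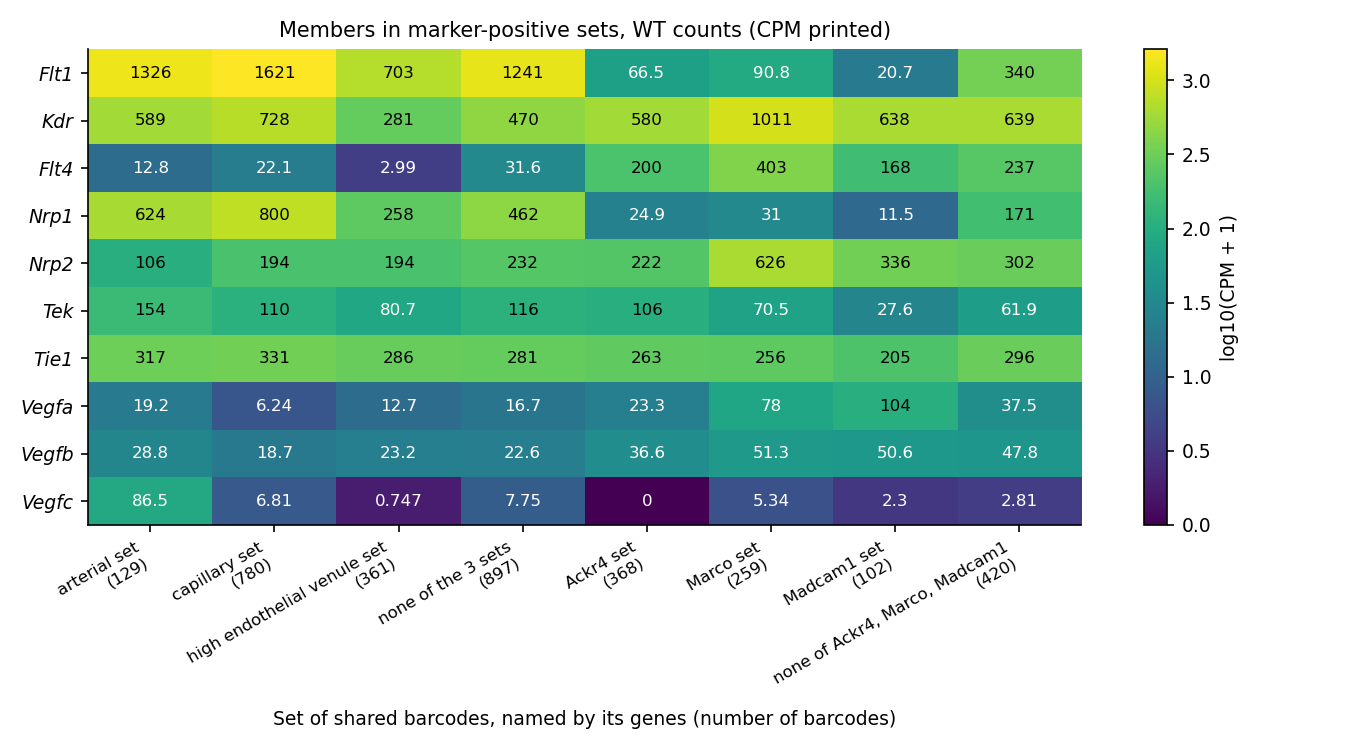
Cells give the CPM of each member in 8 groups of shared barcodes from the WT counts, coloured on a log10 scale, with the number of barcodes under each group name. Flt1 and Nrp1 are bright in the 4 groups of the zero class on the left, Flt4 in the 4 groups of the positive class on the right, and the 86.5 CPM of Vegfc in the arterial set stand out in the bottom row.

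Member UMIs occurred in the same barcodes to different degrees. After thinning to 1000 UMIs, Flt1 and Nrp1 were found together in 50 of 1027 positive barcodes, 4.87%, beside 0.570% for the product of their single shares. In the zero class the same pair was found together in 29.8%, beside 25.6%. Flt4 and Kdr shared 11.5% of positive barcodes, beside 9.57%, and Kdr and Nrp2 15.8%, beside 12.7%. Flt1 and Kdr lay under their product there, at 3.12% beside 4.24%, as did Kdr and Tie1, at 9.64% beside 10.6%. Tek and Tie1 shared 2.04%, beside 1.56%. By correlation over 2807 thinned shared barcodes, with the counts of the WT library and both classes together, the genes most like Flt1 among those with at least 50 CPM were Ly6c1 (r = 0.47), Ly6a (0.42) and Nrp1 (0.42). Nrp2 was most like Lyve1 (0.22). The highest values for Kdr (0.14, Lyve1) and Tie1 (0.08, Emcn) were weak in these sparse counts.

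Set against deep WT barcodes, the shared WT barcodes were higher for all 7 receptors and lower for Vegfa, with Vegfb and Vegfc within 2-fold on the log2(CPM + 1) scale; of 16062 genes, 29.8% were higher and 18.0% lower, with a median log2 ratio of 0.18. Kdr stood at 597 CPM in shared and 0.0614 CPM (3 UMIs) in deep barcodes, and Tie1 at 285 and 0.0205 CPM (1 UMI). Flt1 was at 782 against 0.102 CPM, Flt4 at 121 against 0.123, Tek at 93.6 against 0.0818, Nrp1 at 339 against 2.35 and Nrp2 at 268 against 1.55 CPM. Vegfc stood at 6.77 against 2.92 CPM, 2.32-fold (1.67 to 3.18) as plain CPM and a log2 ratio of 0.99 on that scale, and was past 2-fold in 3 of 12 alternatives.

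In deep barcodes the ligands Vegfa and Vegfb were similar across genotypes, while Flt1, Nrp1, Nrp2 and Vegfc were not. In LApc against WT, Flt1 and Nrp2 were higher and Vegfc was lower, 3 members were within 2-fold on the log2(CPM + 1) scale, and Kdr, Flt4, Tek and Tie1 had too few UMIs. The pseudocount decides the call of Nrp1, which as plain CPM was 2.35-fold higher in LApc than in WT (1.92 to 2.91) and was past the limit in 3 of 12 alternatives. Of 17091 genes in that comparison, 19.6% were higher and 8.13% lower, with a median log2 ratio of 0.31. In LApcL against WT, Flt1 and Nrp1 were higher and Vegfc lower, beside 20.9% of 16387 genes higher and 9.26% lower. In LApcL against LApc, on the same scale, no member was higher and 2, Flt1 and Nrp2, were lower, beside 1.32% of 16558 genes higher and 3.92% lower. As plain CPM, Nrp1 was 2.09-fold higher in LApcL than in LApc (1.87 to 2.34), Nrp2 was 2.44-fold higher in LApcL than in WT (1.89 to 3.18), and Vegfc, with 1 against 38 UMIs, was 33.7-fold lower in LApcL than in LApc (5.69 to 1364). Of these 38 Vegfc UMIs, 33 lay in LApc deep barcodes with a pan-endothelial marker UMI. LApc deep barcodes without one held 5 Vegfc UMIs (0.121 CPM), and such LApcL barcodes held 1 (0.0241 CPM). The comparisons share libraries, so their values stand side by side here. The libraries differed in more than genotype: LApc was analysed at a later day, and Xist, which is transcribed in female cells, was at 1281 CPM in its deep barcodes, 0.920 in WT and 0.261 in LApcL. These differences and genotype cannot be told apart.

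Flt1 had 5 UMIs in WT (0.102 CPM), 1063 in LApc (11.7 CPM, 11.0 to 12.4) and 320 in LApcL (3.97 CPM, 3.55 to 4.44). The log2 ratio was 3.53 for LApc against WT, 2.17 for LApcL against WT and -1.35 for LApcL against LApc. At least 1 Flt1 UMI was present in 12.5% of LApc, 7.98% of LApcL and 0.414% of WT deep barcodes. Thinned to 10000 UMIs, the shares were 6.85%, 2.80% and 0 of 1208 barcodes, the last of which allows up to 0.248%. The counts were concentrated: the 216 LApc barcodes with the most Flt1 UMIs held 94.9% of them, and single barcodes reached 33 UMIs in LApc and 32 in LApcL.

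Nrp2 had 76 UMIs in WT (1.55 CPM, 1.22 to 1.95), 1569 in LApc (17.3 CPM, 16.4 to 18.1) and 305 in LApcL (3.79 CPM, 3.38 to 4.24). LApc was thus the high library, 11.1-fold above WT (8.82 to 14.2) and 4.56-fold above LApcL (4.03 to 5.17). The share of deep barcodes with an Nrp2 UMI was 3.97% in WT, 26.1% in LApc and 11.0% in LApcL, or 1.74%, 13.0% and 3.00% after thinning. Nrp1 was ordered otherwise, with 115 UMIs in WT (2.35 CPM, 1.94 to 2.82), 503 in LApc (5.54 CPM, 5.06 to 6.04) and 932 in LApcL (11.6 CPM, 10.8 to 12.3). The Nrp1 log2 ratio was 0.96 for LApc against WT, 0.94 for LApcL against LApc and 1.91 for LApcL against WT.

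Flt1 and Nrp2, the receptor genes highest in LApc, are shown with the bases before their starts. A link between these bases and the levels was not tested. The RefSeq promoter table (GRCm38.p6) held all 10 members. CTTTGAT, a sequence bound by Tcf/Lef factors, was searched on both strands in the 250 bases before each start and was found in Nrp2 alone among the members, 146 bases before the RefSeq start, and in 3.21% of 32851 promoters. GGAAG, a core of Ets factor sites, occurred 3 times before Flt1, 3 before Nrp1, 6 before Tie1, 1 each before Kdr, Flt4 and Vegfa and none before Nrp2 and the other members, and 64.1% of promoters hold at least 1, 10.7% at least 3 and 0.344% at least 6. ACGTG, a core of hypoxia response sites, occurred before 1 Vegfa start and before none of the other members, and 16.6% of promoters hold it. Matches describe these letters only. The sequences below end where the GENCODE gene begins, which for Nrp2 lies upstream of the RefSeq start, so 218 of the 250 bases are shown for it, with CTTTGAT in capitals for Nrp2 (chr1:62703067-62703284, plus strand) and GGAAG in capitals for Flt1 (chr5:147726012-147726261, minus strand).
Nrp2: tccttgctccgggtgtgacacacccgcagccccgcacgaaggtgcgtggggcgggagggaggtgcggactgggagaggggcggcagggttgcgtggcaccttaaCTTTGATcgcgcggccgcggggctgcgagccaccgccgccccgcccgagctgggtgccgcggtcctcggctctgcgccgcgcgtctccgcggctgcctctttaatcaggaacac
Flt1: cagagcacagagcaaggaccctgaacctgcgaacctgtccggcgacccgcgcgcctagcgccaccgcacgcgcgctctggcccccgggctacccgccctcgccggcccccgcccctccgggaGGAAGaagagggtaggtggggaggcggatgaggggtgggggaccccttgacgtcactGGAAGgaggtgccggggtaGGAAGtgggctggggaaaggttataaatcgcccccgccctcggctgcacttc

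Kdr, Flt4, Tek and Tie1 stayed at or near 0 in all deep sets. Kdr had 3, 8 and 9 UMIs in WT, LApc and LApcL, Flt4 had 6, 8 and 1, Tek had 4, 6 and 5, and Tie1 had 1, 5 and 3. The largest of these levels was the 0.123 CPM of Flt4 in WT.

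The 9 pan-endothelial markers summed to 31.4 CPM in LApc deep barcodes, against 5.28 in WT and 13.0 in LApcL, and 4 of the 7 with enough UMIs were higher in LApc than in WT and 0 lower, beside 19.6% and 8.13% of all genes. The 7 blood endothelial markers, a list that holds Flt1 and Nrp1, summed to 53.4 CPM in LApc and 105 in LApcL, of which Ly6c1 alone made 85.3, against 2.86 in WT, with 3 of 5 higher in LApc than in WT and 0 lower. The 7 lymphatic markers not used to define the positive class summed to 111 CPM in WT and 32.0 CPM in LApc (0 of 6 higher, 2 lower, 4 within 2-fold). The capillary set summed to 25.6 and 4.90 CPM (0 of 3 higher, 2 lower). LApcL sums of these lists were 8.65 and 21.9 CPM. Prox1 and Mmrn1, the lymphatic genes that define that class, went the other way. Together they rose from 2.60 CPM (WT) to 426 (LApc) and 153 (LApcL), with 1 of 2 higher in LApc than in WT and 0 lower. One of them made up 426 CPM of the LApc sum and the other 0.110 CPM. Among the pan-endothelial markers, Cldn5, a tight junction gene, had 670 UMIs in LApc, 6 in WT and 19 in LApcL, and Cdh5, the vascular cadherin gene, had 433, 5 and 13. The LApc deep barcodes were split by UMIs of Cldn5, Cdh5 or Sox18, a choice made after these values were seen. In the 281 barcodes with at least 1 such UMI, Flt1 stood at 40.2 CPM (36.7 to 44.0) and Nrp2 at 52.0 CPM (48.1 to 56.3), against 7.31 and 11.9 CPM in the other 1880. Nrp1 was lower in those 281, at 3.55 CPM (2.57 to 4.78) against 5.84 CPM (5.32 to 6.40). In LApcL the same split gave 4.65 CPM (2.13 to 8.82) for Flt1 in 34 barcodes and 3.96 CPM in the other 1897. By any pan-endothelial UMI, LApcL Flt1 was 3.23 CPM with and 4.68 CPM without. By Sox17 it was 8.23 CPM (6.15 to 10.8) in 102 barcodes and 3.61 CPM (3.19 to 4.07) in the other 1829. Nrp2 in LApcL was 5.68 against 3.74, 3.41 against 4.15 and 1.74 against 3.96 CPM in these splits, in the same order. By Sox17 in LApc, Flt1 was 28.6 against 7.19 CPM and Nrp2 30.6 against 13.7 CPM. In LApc, Kdr had 2 UMIs in those 281 barcodes and Tie1 had 0, which allows up to 0.248 CPM, while the epithelial markers summed to 6895 CPM, against 7381 CPM in the other barcodes. Median depth was 35542 UMIs in those 281 and 34196 in the other barcodes. Without the 1001 LApc deep barcodes that had any pan-endothelial UMI, Flt1 was at 5.96 CPM and Nrp2 at 11.2 CPM. Leaving such barcodes out of both libraries took the log2 ratio of LApcL against LApc to -0.29 for Flt1, no longer past 2-fold, and -1.24 for Nrp2. In LApc against WT the ratios without them were 2.66 for Flt1 and 2.17 for Nrp2.

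In LApc, 152 deep barcodes had at least 10 UMIs of Npy, a neuropeptide gene with 0 UMIs in WT (up to 0.0614 CPM at the floor of 3 counts) and 2 in LApcL deep barcodes. Flt1 stood at 58.4 CPM (52.7 to 64.5) in them and 8.04 CPM (7.44 to 8.66) in the other 2009. Nrp2 was at 49.3 against 14.8 CPM, Vegfa at 139 against 78.4 CPM and Vegfc at 3.02 against 0.214 CPM, while Vegfb was at 35.2 against 37.4 CPM. Without the Npy barcodes the LApcL against LApc log2 ratio of Flt1 was -0.86, no longer past 2-fold, and that of Nrp2 was -1.72.

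Vegfa had 3591 UMIs in WT (73.4 CPM, 71.1 to 75.9), 7526 in LApc (82.8 CPM, 81.0 to 84.7) and 5646 in LApcL (70.1 CPM, 68.3 to 72.0). The libraries were within 1.18-fold of each other in CPM, and the sign of LApc against WT turned with scaling, from a log2 ratio of 0.17 in CPM to -0.27 with median-of-ratios factors. For LApcL against WT the Vegfa log2 ratio was -0.07 in CPM and -0.54 at its lowest among 11 alternatives. After thinning, 47.0% of WT, 50.9% of LApc and 47.4% of LApcL deep barcodes held a Vegfa UMI. Vegfb had 1908 UMIs in WT (39.0 CPM, 37.3 to 40.8), 3382 in LApc (37.2 CPM, 36.0 to 38.5) and 3937 in LApcL (48.9 CPM, 47.4 to 50.5), so LApcL stood above both by up to 1.31-fold in CPM, while median-of-ratios factors turned the log2 ratio of LApcL against WT from 0.32 to -0.15. Vegfc was the ligand that differed, with 143 UMIs in WT (2.92 CPM, 2.46 to 3.45), 38 in LApc (0.418 CPM, 0.296 to 0.574) and 1 in LApcL (0.0124 CPM). WT stood 6.99-fold above LApc (4.86 to 10.3), and at least 1 Vegfc UMI was found in 10.3% of WT, 1.43% of LApc and 0.0518% of LApcL deep barcodes.

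**Figure D4:**
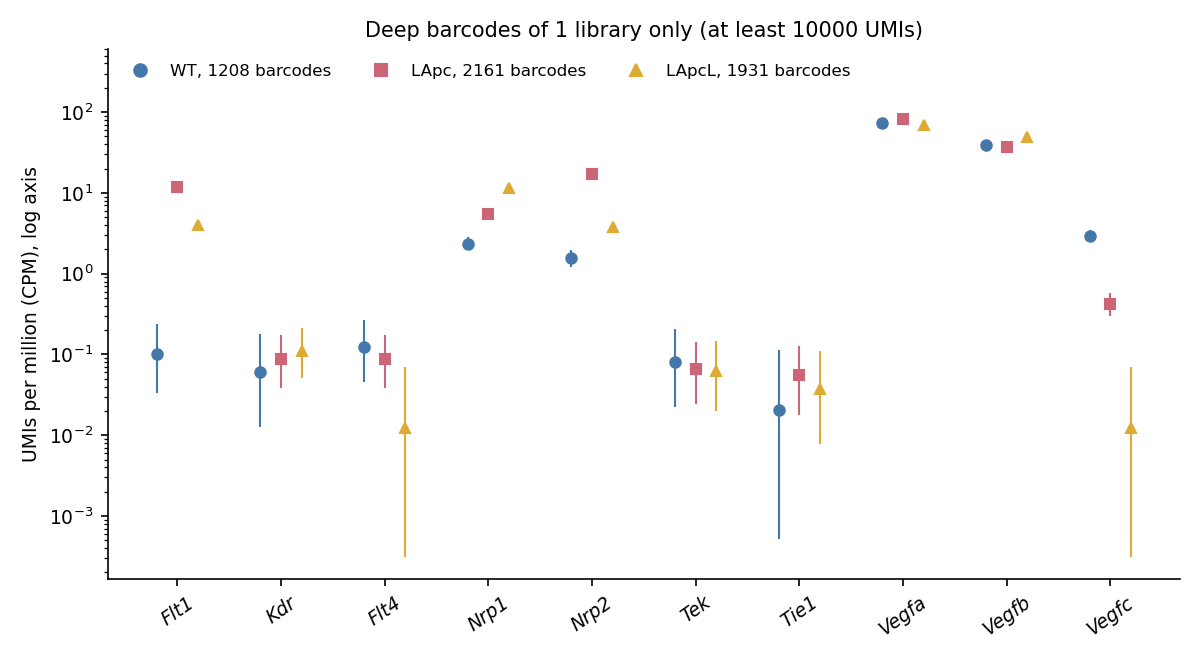
Points are CPM on a log axis in the deep barcodes of WT, LApc and LApcL and bars are exact Poisson 95% intervals. Vegfa and Vegfb of the 3 libraries lie close together at the top right, Flt1 spans from 0.102 to 11.7 CPM, Vegfc falls in the order WT, LApc, LApcL, and Kdr, Flt4, Tek and Tie1 lie at or under 0.123 CPM.

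Genes for other ligands and partners of these receptors also differed between deep barcodes of the 3 libraries. Of the neuropilin ligands and plexins, 7 had enough UMIs in LApc against WT, with 5 higher and 0 lower, beside 19.6% and 8.13% of all genes. Sema3c, a ligand of both neuropilins, was at 19.7, 156 and 136 CPM in WT, LApc and LApcL, and Sema3f, the main semaphorin ligand of Nrp2, at 0.327, 31.7 and 10.6 CPM. Sema3e, which binds Plxnd1, was at 0.0205, 10.3 and 2.17 CPM and Sema3a at 0 (up to 0.0614), 8.73 and 0.733 CPM. Pgf was at 0.245, 14.0 and 5.61 CPM, and Angpt2 at 2.58, 7.91 and 6.53 CPM. Of the receptor partners, 4 of 8 were higher in LApc than in WT and 0 lower beside the same shares, among them Tspan12 (17.9, 128 and 131 CPM), a tetraspanin known from vessels of the retina. Sema3a, Sema3e and Sema3f were lower in LApcL than in LApc, 3 of 7 in that list, beside 3.92% of all genes. The response genes gave no common direction, with 4 higher, 2 lower and 7 within 2-fold in LApc against WT; Nr4a1 was at 16.9, 122 and 58.9 CPM and Dusp5 at 227, 47.1 and 27.4 CPM.

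Within each library, deep barcodes were ranked by the share of UMIs from gene lists and cut into equal terciles, which are ranges of a score and not cell types. Vegfa went with hypoxia response genes, a list that does not hold Vegfa. It was 61.7 CPM in the lowest and 89.1 CPM in the highest tercile in WT, 39.2 and 125 CPM in LApc, and 38.1 and 113 CPM in LApcL, or 1.44-fold (1.33 to 1.57), 3.19-fold (2.98 to 3.40) and 2.96-fold (2.75 to 3.19). Its most like gene over LApc deep barcodes was Bnip3 (r = 0.36), a gene induced by low oxygen, and over LApcL barcodes Ndrg1 (0.31), another such gene, while in WT the highest values were for Gm42418 (0.27), which overlaps ribosomal RNA, and Malat1 (0.26), a nuclear RNA. Barcodes of 1 library share its preparation, and these correlations are descriptions. Of the 14 hypoxia response genes, 4 were higher and 3 lower in LApc than in WT, and 6 were higher and 1 lower in LApcL than in WT, beside 19.6% higher and 8.13% lower of all genes in the first and 20.9% and 9.26% in the second comparison, with Bnip3 at 70.6, 244 and 163 CPM and Hif1a, the oxygen-sensed factor, at 211, 52.8 and 74.8 CPM in WT, LApc and LApcL. Vegfa was also lower in the highest tercile of dividing cell genes, at 54.6 against 115 CPM in LApc, 55.7 against 92.8 CPM in LApcL and 65.0 against 83.1 CPM in WT.

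Vegfb ran the other way along the dividing cell genes, from 32.3 to 47.3 CPM in WT, 29.0 to 43.7 CPM in LApc and 39.1 to 54.4 CPM in LApcL. It was also higher in the highest tercile of stem cell genes in WT, at 47.3 against 28.6 CPM, and lower in the highest tercile of enterocyte genes there, at 31.2 against 49.99 CPM. In LApc and LApcL, whose deep barcodes held 1117 and 1027 UMIs of enterocyte genes against 1099733 in WT, Vegfb differed by at most 1.07-fold along that list.

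Nrp1 in WT lay in barcodes with stem cell genes. It had 2 UMIs in the lowest tercile (0.120 CPM), 20 in the middle and 93 in the highest (5.98 CPM, 4.83 to 7.32), and it was 6.67 CPM in the lowest and 0.230 CPM in the highest tercile of enterocyte genes. In LApc it was 4.53 and 7.25 CPM and in LApcL 10.5 and 13.3 CPM in the lowest and highest terciles of stem cell genes. The interval of the highest WT tercile overlapped that of all LApc deep barcodes. When the WT barcodes in the highest tercile of enterocyte genes were left out, a choice made after seeing these values, the Nrp1 log2 ratio dropped from 0.96 to 0.53 for LApc against WT and from 1.91 to 1.47 for LApcL against WT.

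Flt1 and Nrp2 in LApc lay in barcodes low in dividing cell genes. Flt1 was 24.0 CPM in the lowest tercile, 10.5 in the middle and 4.15 in the highest, and Nrp2 was 38.0, 14.0 and 5.60 CPM. In LApcL the same terciles differed less, with 4.30 and 3.11 CPM for Flt1 and 5.15 and 3.22 CPM for Nrp2. Along stem cell genes Flt1 in LApcL dropped from 6.34 to 1.58 CPM and Nrp2 from 5.76 to 2.66 CPM, whereas in LApc both were higher in the highest tercile, at 13.2 against 9.33 CPM and 19.8 against 12.8 CPM. Flt1 and Nrp2 UMIs shared 1.80% of LApc deep barcodes after thinning, beside 0.887% for the product of their single shares.

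**Figure D5:**
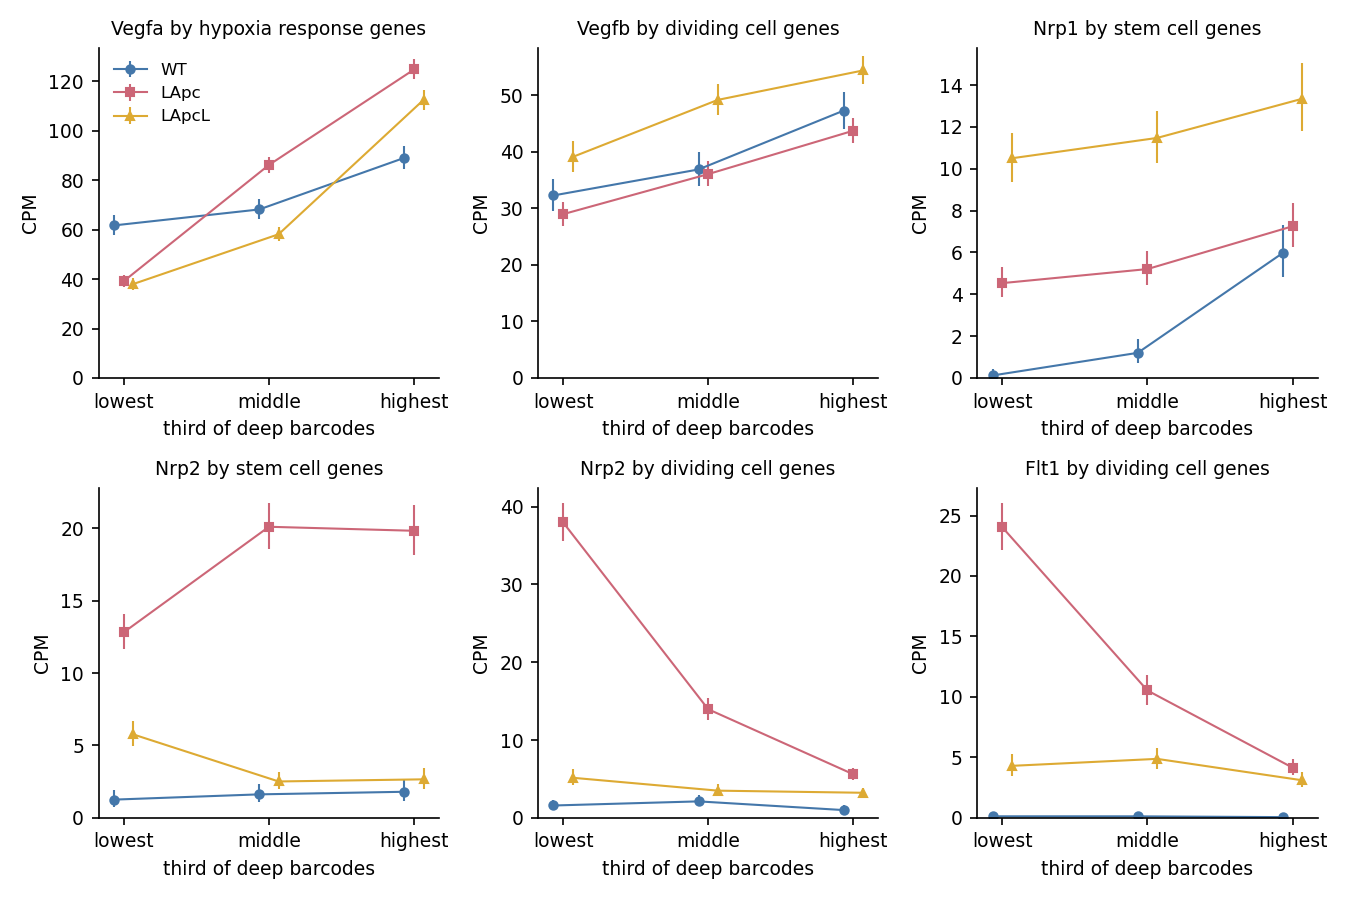
Each panel gives the CPM of 1 gene in the lowest, middle and highest tercile of deep barcodes by the list named, per library, with exact Poisson 95% intervals and axes from 0. Vegfa climbs with hypoxia response genes to 125 CPM in LApc, Vegfb climbs with dividing cell genes in all 3 libraries, Nrp1 climbs from 0.120 to 5.98 CPM with stem cell genes in WT, and Nrp2 and Flt1 of LApc drop along dividing cell genes.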

How the data were processed

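The study made droplet libraries of whole organoids dissociated with trypsin for 40 minutes and passed through a mesh of 20 μm per the labels and 40 μm per the study's methods. The authors deposited whole-number counts of UMIs per gene and barcode, without normalisation, for barcodes already called as cells with at least 500 UMIs. Per the file headers these were made with Cell Ranger 6.0.1, while the submitters' processing notes name Cell Ranger 2.1.1, and the genome is mm10 (GRCm38). No doublet calls came with the counts and no caller was applied; an alternative left out the 5% deepest barcodes.

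UMIs were summed over the barcodes of a set (Python 3.11.15, numpy 2.4.6, scipy 1.17.1, pandas 2.3.3) and scaled to 1e+06 as CPM. A gene was compared where 1 set held at least 10 UMIs and was called at a 2-fold change on log2(CPM + 1). Levels carry exact Poisson intervals at 95%, shares exact Clopper-Pearson ones, and folds intervals from the binomial split of both counts. PCR copies are collapsed by UMIs, and intervals cover counting error only. With 1 library per genotype no test was run. The interval step was tested on simulated counts. The 10 members are named in full; of each other list, up to 6 genes with the highest CPM or past 2-fold could be named, and like genes are the 3 with the highest correlation. The members and the 27 gene lists were chosen with earlier results of these data known. Gene positions follow GENCODE and promoters RefSeq. Alternatives covered pseudocount, scaling, mitochondrial and depth limits, the splitting genes and the library supplying the counts.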

Additional observations from a re-analysis of the deposited data

Results flagged for a closer look

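Vegfa was counted in WT barcodes that the comparisons leave out, above its level in the deep WT barcodes (73.4 CPM). In the 1784 WT barcodes of that library alone with under 10000 UMIs and at most 20% mitochondrial UMIs, Vegfa stood at 285 CPM (272 to 299), and in the 5144 with over 20% mitochondrial UMIs at 196 CPM (190 to 201). The matching values in LApc were 129 and 71.3 CPM and in LApcL 96.1 and 70.0 CPM, beside 82.8 and 70.1 CPM in their deep barcodes. These 2 groups held 16.3% and 46.1% of the Vegfa UMIs of WT. Vegfb did not show it, with 26.0 and 16.6 CPM in the same WT barcodes against 39.0 in the deep ones. The part of mitochondrial share and depth in the Vegfa level was not tested.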

How the results depend on the processing

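Of 142 counts of members past 2-fold recomputed under an alternative, 134 stayed within 1.5 times the value given above. Of the other values, 530 stayed within their counting interval, or within 1.5 times for shares of all genes, and 225 moved further. With a pseudocount of 10 CPM in place of 1, no member was lower in LApc than in WT, none was lower in LApcL than in LApc, and in LApcL against WT 0 were higher and 0 lower, since Flt1 (0.47), Nrp1 (0.80) and Vegfc (-0.37) came under the limit. With Mmrn1 alone 1 member, Flt4, was higher in the positive class. In LApcL against LApc, 1 member (Nrp1, 1.05) was higher with at most 10% mitochondrial UMIs, 1 (Nrp2) was lower without barcodes holding a pan-endothelial UMI, and 1 (Nrp2) was lower without the Npy barcodes, the last chosen after seeing the data. No called value changed sign. Flt1, Flt4 and Nrp1 kept their calls between the positive and zero class under all 15 alternatives, Flt1 and Nrp2 in LApc against WT under all 12, and all 8 calls of shared against deep barcodes under all 12. In LApcL against LApc, Flt1 was past 2-fold in 8 of 11 alternatives and Nrp2 in 10 of 11. Between the classes, Vegfb was past 2-fold in 8 of 15, Vegfa in 14 and Vegfc in 13. Median-of-ratios factors moved the median of all genes by -0.41 in LApc against WT and -0.45 in LApcL against WT, and under them Vegfb was -0.50 and -0.15. Kdr, Flt4, Tek and Tie1 had at most 9 UMIs a library in deep barcodes, too few to compare genotypes, and Vegfc had 9 in the positive class. No paired analysis was possible because each genotype has 1 library.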
